A study of Mus musculus with 12 samples.

Results

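The kinesin motor family was examined across hearts of Salvador mutant and control mice at postnatal day 8. Its members were all genes whose symbol on the array is Kif followed by a number, together with Kifap3, Kifc2, Kifc3 and the kinesin light chains Klc1 to Klc4. That gave 44 genes of 17742 named on the array, covered by 55 of 26423 probes. The choice used names only, and each gene is given by the brightest of its probes on average. From general knowledge of their roles, 12 members were classed as mitotic kinesins, 22 as transport kinesins (light chains and accessory subunits included) and 10 as other kinesins. Of the 14 names listed as mitotic beforehand, Kifc1 and Kif4b matched no probe in the annotation used here.

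The study used 12 one-colour arrays of whole hearts from mice of the C57bl/6 X 129 hybrid background. There were 2 biological samples of the genotype labelled Salvador mutant (Salv CKO, a conditional knockout) and 2 labelled wild-type (Control), each hybridised to 3 technical arrays. The sources used here do not state the Cre driver, the deleted part of the gene or any pooling of hearts. One label calls the tissue embryonic heart, although 2 other fields place it at day 8 after birth. Salvador (Sav1) is the scaffold of the Hippo kinases, which restrain growth in the developing heart, and the arrays were made to find genes that change when it is missing.

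Kinesins are motor proteins that use ATP to move along microtubules or to take them apart. The mitotic kinesins build the spindle, move and align chromosomes and finish cell division, and most are made only in dividing cells. The transport kinesins carry vesicles, mitochondria and protein complexes, also in cells that no longer divide. Among such cells are heart muscle cells, which leave the cell cycle in the days after birth. Other members serve cilia, Hedgehog signalling or microtubule ends.

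Many genes of late cell division share a short promoter element near their start, the cell cycle genes homology region (CHR), often together with a CCAAT box, which is bound by the factor NF-Y. RefSeq promoter windows (GRCm38.p6, 250 bases before to 50 after the start) were matched for 35 of the 44 members. The letters TTTGAA or TTCGAA, on either strand, stood for the CHR, and CCAAT, on either strand, for the CCAAT box. A CHR and a CCAAT match can share at most 1 end base. The CHR letters occurred in 9 of 11 matched mitotic kinesins (81.8%), in 1 of 15 transport kinesins (6.67%) and in 3 of 9 other kinesins (33.3%). Over all 32851 promoter windows of this length 19.2% held them, and over all 27025 genes 21.7% did. CCAAT occurred in 7 of 11 mitotic and 6 of 15 transport kinesins, against 41.1% of all genes. The window of Kif1a was the one transport window with the CHR letters, and those of Kif18a and Kif2b were the mitotic windows without them. A match is a description of the letters and not a site.

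The windows below run from 120 bases before to 25 after the start, 5′ to 3′ along the gene, with the CHR and CCAAT letters in capitals. The first group shows the 4 mitotic kinesins that separated the Salv CKO from the control samples, to set their starts beside the values that follow. They lie at chr19:34922238-34922382 on the plus strand, chr4:117178748-117178892 on the minus strand, chrX:100625945-100626089 on the plus strand and chr2:109280618-109280762 on the plus strand.
Kif20b: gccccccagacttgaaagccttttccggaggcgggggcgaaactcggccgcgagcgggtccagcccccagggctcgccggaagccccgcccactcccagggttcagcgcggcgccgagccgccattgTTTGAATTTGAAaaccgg
Kif2c: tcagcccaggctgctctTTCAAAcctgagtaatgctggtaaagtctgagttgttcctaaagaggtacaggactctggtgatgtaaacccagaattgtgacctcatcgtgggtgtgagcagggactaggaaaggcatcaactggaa
Kif4: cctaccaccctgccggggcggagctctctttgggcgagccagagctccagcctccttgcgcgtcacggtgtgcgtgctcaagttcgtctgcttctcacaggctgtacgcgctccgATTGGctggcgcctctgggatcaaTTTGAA
Kif18a: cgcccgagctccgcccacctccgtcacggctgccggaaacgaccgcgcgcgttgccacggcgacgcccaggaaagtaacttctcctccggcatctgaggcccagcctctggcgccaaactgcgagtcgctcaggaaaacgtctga

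The second group shows 4 mitotic kinesins whose samples overlapped, and last the transport kinesin Kif5c, which had neither motif. They lie at chr19:37376262-37376406 on the plus strand, chr9:122950961-122951105 on the plus strand, chr7:127042396-127042540 on the minus strand, chr9:61946775-61946919 on the minus strand and chr2:49619166-49619310 on the plus strand.
Kif11: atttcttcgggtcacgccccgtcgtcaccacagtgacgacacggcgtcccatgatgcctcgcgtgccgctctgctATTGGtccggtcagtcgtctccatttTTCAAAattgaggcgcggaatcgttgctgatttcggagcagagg
Kif15: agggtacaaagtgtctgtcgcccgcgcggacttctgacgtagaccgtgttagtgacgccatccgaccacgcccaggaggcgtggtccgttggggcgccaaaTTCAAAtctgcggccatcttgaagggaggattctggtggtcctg
Kif22: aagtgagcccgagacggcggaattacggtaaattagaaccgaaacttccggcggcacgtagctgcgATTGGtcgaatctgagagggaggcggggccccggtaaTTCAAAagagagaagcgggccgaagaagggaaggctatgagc
Kif23: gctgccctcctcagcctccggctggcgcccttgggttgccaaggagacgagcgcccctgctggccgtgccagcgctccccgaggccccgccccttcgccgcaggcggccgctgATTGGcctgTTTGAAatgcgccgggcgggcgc
Kif5c: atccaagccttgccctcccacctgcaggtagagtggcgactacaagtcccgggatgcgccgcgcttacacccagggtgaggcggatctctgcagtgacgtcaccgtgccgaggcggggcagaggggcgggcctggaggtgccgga
Kif11 and Kif15 carried the CHR letters at the same place, 19 to 14 bases before the start, and Kif22 at 17 to 12 bases before it. Kif20b carried them in a tandem pair from position 8 to 19 after the start. The letters were present on both sides of the split by expression described below: in 3 of the 4 genes that separated the groups and in all 4 of those shown that did not.

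Levels are log2(intensity + 1) after quantile normalization, and each sample is the mean of its 3 arrays. A difference is Salv CKO minus control on this scale, which understates the change of dim probes, and a probe's level is not set against that of another probe. Tested by limma over all probes with Benjamini-Hochberg adjustment, 0 of 26423 probes (0%) and 0 of 44 members passed an adjusted p of 0.05 (smallest adjusted p of a member 0.999). Before adjustment 1047 probes (3.96%) had a p under 0.05 and, among members, Kif20b and Kif5c did, that is 2 of 44 against 3.31% of all genes. Over the 44 members the samples of the groups did not overlap in 12, against 30.7% of all genes, and the 12 arrays did not in 7, against 5.94%. The differences below are therefore values and not calls. The heart muscle markers Tnnt2, Tnni3, Actn2 and Nppa, the 4 of 8 listed that had a probe, were bright in all samples (14.68 to 15.35). Sav1 did not follow the labels, at 8.06 and 8.52 (Salv CKO) against 8.75 and 8.08 (Control), so directions are those of the labels. The deleted part of Sav1 is unknown here, and a probe outside it checks nothing. In whole-heart RNA, fewer cells of a type and less RNA per cell cannot be told apart.

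**Figure D1:**
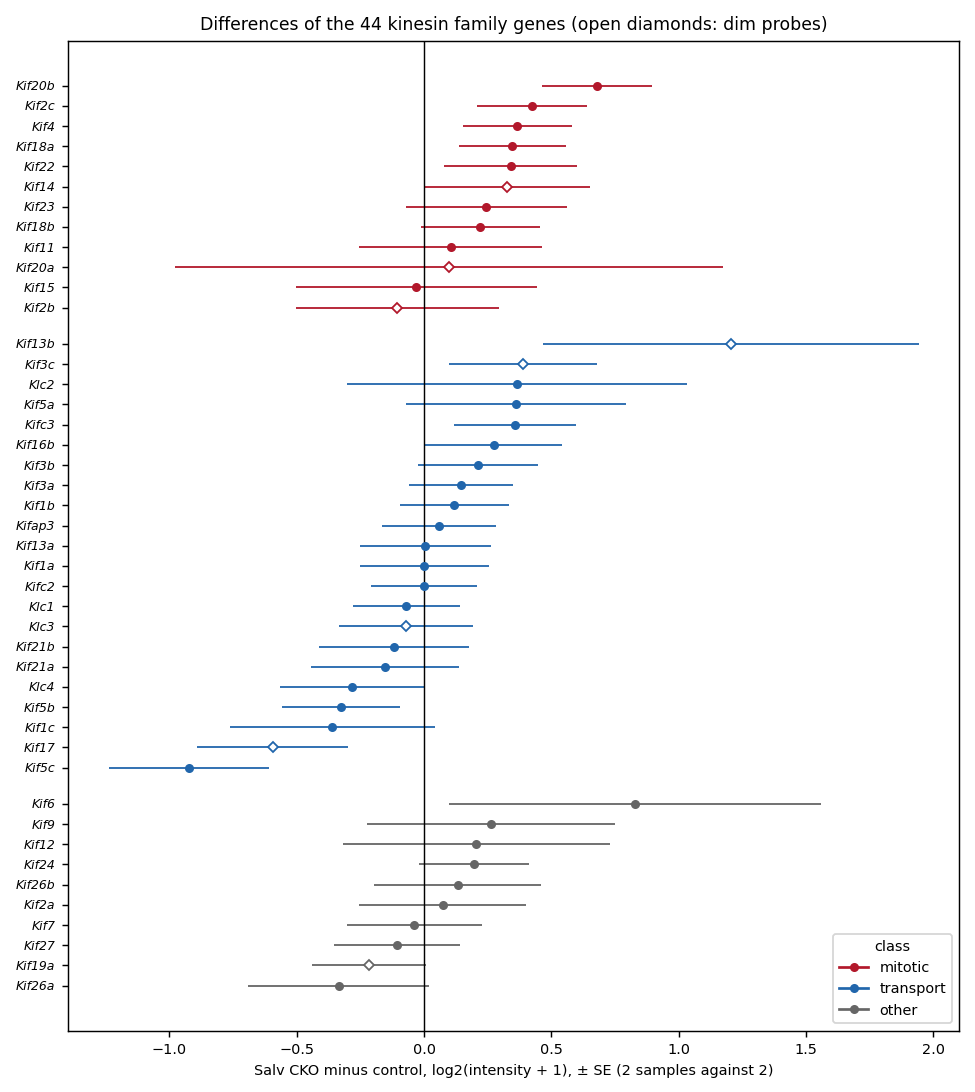
Difference of each of the 44 genes (points, with the standard error from limma as bars), grouped by class, Salv CKO minus control on the log2(intensity + 1) scale. Most mitotic kinesins lie right of 0 (10 of 12), whereas transport kinesins lie on both sides (13 of 22 right of 0), from Kif5c at -0.92 to Kif13b at 1.21; open diamonds are dim probes with a mean deposited intensity under 32.

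Mitotic kinesins lay mostly above 0 as a class: the difference was above 0 in 10 of 12 and its median was 0.28, against 46.9% positive and a median of -0.020 over all genes. In 4 of the 12 both Salv CKO samples lay above both controls, against 14.2% of all genes, and in none did both lie below (16.5% of all genes). In the same 4 genes, Kif20b, Kif2c, Kif4 and Kif18a, all 6 Salv CKO arrays lay above all 6 control arrays, which held for 2.58% of all genes. The technical arrays are repeats of the same samples and add no independent evidence. The class was chosen with earlier results on mitosis genes in these samples known, so it is no separate support for a direction.

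Kif20b, a plus-end motor of the midzone needed for the last step of cytokinesis, had the largest difference of the class. Its deposited intensities were 267, 273 and 249 on the arrays of Salv CKO 1 and 360, 311 and 379 on those of Salv CKO 2. In Control 1 they were 206, 182 and 189, and in Control 2 they were 149, 152 and 179. The log2 levels were 8.20 and 8.22 in the Salv CKO samples against 7.63 and 7.43 in the controls. The Salv CKO samples nearly coincided, and the controls lay below them on every array. The difference was 0.68 ± 0.22 (SE, limma, unadjusted p = 0.0282), or 1.60-fold, and ran from 0.58 to 0.78 with 1 sample left out.

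Kif2c, which takes microtubules apart at kinetochores and so corrects wrong attachments, had levels of 7.70 and 7.67 against 7.37 and 7.15. Control 2 was the lowest. The difference was 0.42 ± 0.22 (SE, limma, unadjusted p = 0.111), with a range of 0.32 to 0.53 when samples were left out. Kif4, a chromosome-bound motor that also organises the central spindle, had levels of 8.73 and 8.92 against 8.42 and 8.50. Its difference was 0.37 ± 0.21. The other probe of Kif4 read 7.75 and 7.99 against 6.51 and 7.47, a difference of 0.88 ± 0.38 in the same direction, with Control 1 the lowest. Kif18a, which damps the movements of chromosomes as they align, had levels of 7.60 and 7.69 against 7.35 and 7.25, a difference of 0.35 ± 0.21. For Kif18a and Kif4 the spread between samples of a group was close to that between technical arrays (SD 0.0706 against 0.079 in Kif18a, and 0.101 against 0.111 in Kif4).

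**Figure D2:**
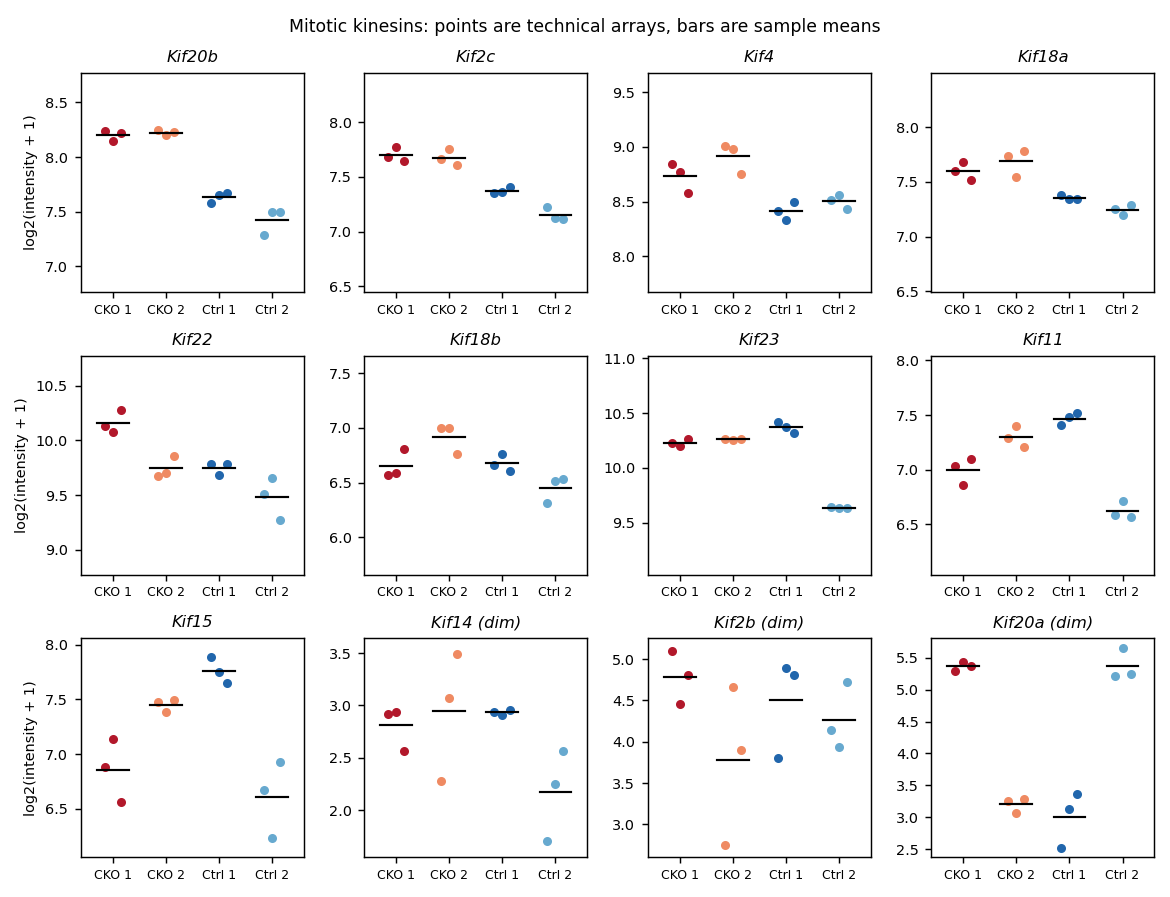
Level of each mitotic kinesin on the log2(intensity + 1) scale (vertical axis; every panel has its own range, of at least 2 log2 units) in Salv CKO 1 and 2 (CKO) and Control 1 and 2 (Ctrl); points are the 3 technical arrays and bars their mean. In Kif20b, Kif2c, Kif4 and Kif18a every Salv CKO array lies above every control array, whereas Kif23, Kif11 and Kif15 are highest in Control 1 and lowest in Control 2, and the dim Kif20a is high in Salv CKO 1 and Control 2.

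A second set of mitotic kinesins parted the control samples from each other. Kif23, the motor of the centralspindlin complex that organises the cleavage furrow, had levels of 10.23 and 10.26 in the Salv CKO samples, with Control 1 at 10.37 and Control 2 at 9.63. The arrays of each sample agreed closely (SD 0.0301), so Control 2 alone was low. The difference of 0.24 ± 0.32 became -0.12 without Control 2 and 0.61 without Control 1. Kif11, the motor that pushes the spindle poles apart, had levels of 7.00 and 7.30 against 7.47 and 6.62. Kif15, which backs up Kif11 in holding the spindle bipolar, had levels of 6.86 and 7.45 against 7.76 and 6.61. In both, Control 1 was the highest and Control 2 the lowest, and the Salv CKO samples lay between. The difference was 0.10 in Kif11 and -0.031 in Kif15, and both changed sign with the sample left out (from -0.32 to 0.53 and from -0.61 to 0.54).

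Kif22, a chromosome-arm motor, had levels of 10.16 and 9.75 against 9.75 and 9.48, so that Salv CKO 2 and Control 1 coincided at this precision. Its difference was 0.34 ± 0.26, and 0.13 without Salv CKO 1. Kif18b, which shortens astral microtubules, had levels of 6.65 and 6.92 against 6.68 and 6.45, a difference of 0.22 ± 0.23 that lay between 0.089 and 0.35 when samples were left out. The remaining 3 mitotic kinesins were dim. Kif14, a cytokinesis motor, had deposited intensities of at most 13 on any array, and Kif2b, a relative of Kif2c, of at most 36, and their samples overlapped. Over the class Control 2 was the lowest sample in 9 of 12 genes and the highest in 0.

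Kif20a, the motor that carries the chromosomal passenger complex to the midzone, followed neither the labels nor the rest of the class. Its intensities were 40, 49 and 39 in Salv CKO 1 and 35, 41 and 38 in Control 2. They were lower in Salv CKO 2, at 9, 7 and 11, and in Control 1, at 5, 7 and 8. Thus 1 sample of each genotype was high and 1 was low, without overlap of the arrays. The difference of 0.098 ± 1.08 therefore averages samples that disagree. The list of motile ciliated and airway markers (9 of 9 with a probe) parted the same samples in its sum, though not in every gene: its summed normalized intensity was 2751 in Salv CKO 1 and 5842 in Control 2, the samples with the high level, but 545.8 and 643.8 in the pair with the low one. The airway secretory genes differed most: Scgb3a2 stood at 10.61 and 11.55 in the first pair and at 3.29 and 4.02 in the second, and Scgb1a1 at 8.14 and 11.19 and at 4.07 and 3.68. The ciliary genes Tekt1 and Dnah5 and the list member Sftpc parted the samples in the same way, by smaller amounts. Each was higher in Salv CKO 1 and Control 2 than in the other samples, though Dnah5 was dim. Other ciliary genes did not follow this split. Ccdc39 stood at 5.08 and 4.63 in the Salv CKO samples against 3.99 and 3.91 in the controls, and Rsph1 at 6.43 and 6.20 against 6.48 and 6.68. Of the defining markers Dnah9 was near background in all 4 samples (0.92 to 2.22). Foxj1, the regulator of motile cilia, could not be placed, because its technical arrays spread by an SD of 2.32. The part of airway RNA in the level of Kif20a was not tested.

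Other cell types varied over the samples beside the mitotic class. The erythroid precursor markers (5 of 8 with a probe) summed to 9109 and 13680 in Salv CKO against 11020 and 5296 in the controls. The sum was lowest in Control 2, like Kif23, Kif11 and Kif15, but it was mostly Alas2 (mean deposited intensity 9562). Slc4a1 and the dim Epb42 were also lowest there, while the dim Klf1 was lowest in Salv CKO 1 and the dim Ermap in Control 1. The endothelial markers (4 of 4) summed to 9599 and 11820 against 12330 and 10040, highest in Control 1. Cdh5 and Kdr were highest there too, but Pecam1 was lowest in Control 1 (10.34) and Tek was highest in Control 2 (11.71). The thymocyte markers (6 of 7) summed to 330.5 and 244.6 against 276.5 and 317.7. Fibroblast markers (5 of 5) ran from 43290 to 44630 and macrophage markers (3 of 4) from 1000 to 1368. The fibroblast sum was mostly Dcn (mean deposited intensity 39250), so it hides the other markers. Pdgfra stood at 1.01 and 10.72 in the Salv CKO samples against 2.14 and 8.71 in the controls. Col3a1 and Tcf21 varied less, and Col1a1 was near background. Fat cell markers (5 of 5) summed to 4993 and 1234 against 8376 and 4495. The part of these cells in the mitotic values was not tested.

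The genes that work with the mitotic kinesins are a list of 26, of which 25 had a probe. In 24 the difference was positive, with a median of 0.54, and in 21 the Salv CKO samples lay above both controls (14.2% of all genes). Before adjustment 9 had a p under 0.05, all positive, against 3.31% of all genes in either direction, and 0 passed the adjusted threshold. Racgap1, the partner of Kif23 in centralspindlin, stood at 9.60 and 9.35 against 8.51 and 8.74, a difference of 0.85 ± 0.23 (SE). Control 1 was thus the lowest sample for Racgap1 and the highest for Kif23. Hmmr, a spindle assembly factor, differed by 0.69 ± 0.20, and the cyclin gene Ccnb2 by 1.12 ± 0.34. Aurkb, Birc5 and Cdca8, members of the passenger complex carried by Kif20a, differed by 0.72, 0.90 and 1.15. Incenp, the scaffold of that complex, differed by only 0.11 ± 0.25, with overlap. Cenpe, a kinesin of the kinetochore that the naming rule leaves out, had levels of 7.66 and 7.57 against 7.32 and 6.96, a difference of 0.48 ± 0.24. The one negative value was that of the abscission gene Cep55 (-0.31).

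Transport kinesins showed no common direction. Of 22 genes, 13 had a positive and 9 a negative difference, with a median of 0.0027. In 3 both Salv CKO samples lay above the controls (Kif13b, Kifc3 and Kif3a) and in 3 both lay below (Kif5c, Kif5b and Kif17), against 14.2% and 16.5% of all genes. On all 12 arrays 1 lay above (Kifc3) and 2 below (Kif5c and Kif5b), against 2.58% and 3.35% of all genes. Without the normalization between arrays, which moves the median of all probes from -0.010 to 0.11, the class median was 0.094. With arrays centred on their medians, which moves the median of all probes to -0.08, the class median was -0.095.

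Of the heavy chains of kinesin-1, the main carrier of vesicles and mitochondria, Kif5c and Kif5b lay below the controls and Kif5a had probes of opposite sign. Kif5c, a form best known from neurons, had intensities of 89, 101 and 74 in Salv CKO 1 and 140, 123 and 162 in Salv CKO 2. They were 283, 220 and 211 in Control 1 and 152, 132 and 177 in Control 2. After normalization the levels were 6.47 and 6.96 against 7.91 and 7.37, with no array of one group within the range of the other. The difference was -0.92 ± 0.32 (SE, limma, unadjusted p = 0.036), or 0.527-fold, and stayed between -1.20 and -0.65 with 1 sample left out. Kif5b, the form made in nearly all cells, had levels of 12.55 and 12.68 against 13.10 and 12.78, a difference of -0.33 ± 0.23, and its arrays did not overlap either. The other probe of Kif5b read 11.86 and 11.13 against 11.48 and 11.92, so that its samples overlapped and the probes disagreed on the order. Kif5a, a neuronal form, was lowest in Control 1 (6.19, against 7.26 in Control 2 and 7.31 and 6.86 in the Salv CKO samples), while its dimmer probe gave -1.28 ± 0.59, against 0.36 ± 0.43 for the brighter one, which became -0.17 without Control 1.

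Neuronal and Schwann cell markers were measured beside Kif5c and Kif5a. Of 12 listed, 8 had a probe, and their summed normalized intensity was 1099 and 1198 in the Salv CKO samples against 946.2 and 1097 in the controls. Of these, 6 of 8 had a negative difference. The Schwann cell marker S100b differed by -0.73, without overlap of the arrays, while the Schwann cell marker Sox10 differed by -0.031, with overlap. Of the sympathetic neuron markers Dbh differed by 0.53 and Th by -0.095. The part of these cells in the level of Kif5c was not tested.

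The kinesin light chains link kinesin-1 to its cargo. Klc1 was level across samples, at 11.40 and 11.53 against 11.56 and 11.50, a difference of -0.069 ± 0.21, while its other probe gave 0.23 ± 0.21. Klc4 had its highest level, 9.72, in Control 1, against 9.15 in Control 2 and 9.07 and 9.24 in the Salv CKO samples. Klc2 was the most variable light chain, with 9.68 and 9.16 in the Salv CKO samples and 8.13 and 9.98 in the controls. Control 1 was the lowest, by intensities of 302, 189 and 379 against 942, 874 and 953 in Control 2. After normalization every array of Salv CKO 2 also lay below those of Salv CKO 1 and Control 2. The difference of 0.36 ± 0.67 changed sign without Control 1 (-0.56). Klc3 was dim.

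**Figure D3:**
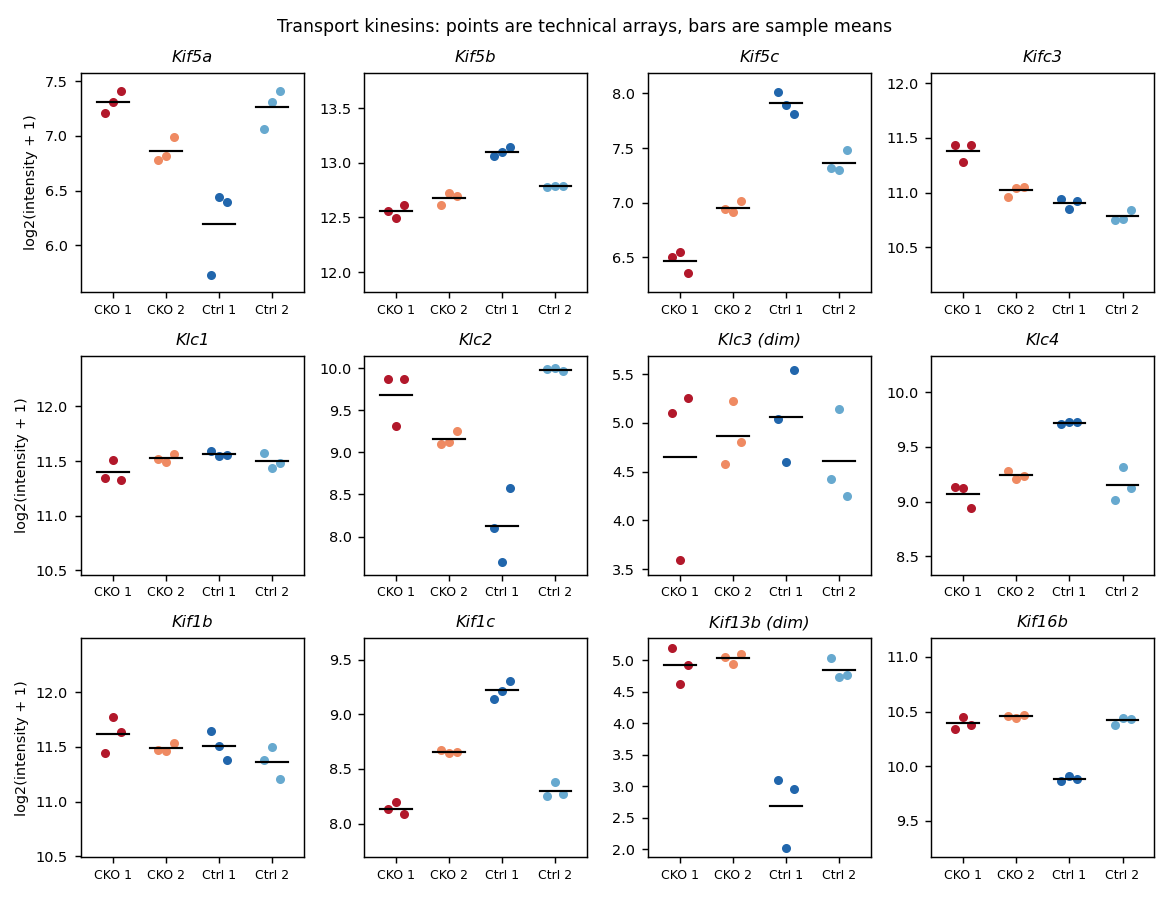
Level of 12 transport kinesin genes on the log2(intensity + 1) scale (vertical axis; every panel has its own range, of at least 2 log2 units) in Salv CKO 1 and 2 (CKO) and Control 1 and 2 (Ctrl); points are the 3 technical arrays and bars their mean. Kif5c and Kif5b are lower and Kifc3 is higher on every Salv CKO array than on any control array. Kif13b and Kif16b are low in Control 1 alone, Klc2 is lowest there, and Kif1c and Klc4 are high there.

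Kinesin-2, which builds and supplies the cilium, was close to level. Kif3a had levels of 8.46 and 8.41 against 8.29 and 8.28, a difference of 0.14 ± 0.20 without overlap of the samples. Kif3b differed by 0.21 ± 0.23 and by 0.014 on its other probe. The accessory subunit Kifap3 differed by 0.058 ± 0.23. Kif17 and Kif3c were dim, with deposited intensities of -1 to 10 for Kif17, so that its difference of -0.59 ± 0.30 lies near background. The technical arrays of Kif3c spread by an SD of 0.99, against 0.315 between samples.

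Kinesin-3 motors carry vesicles and endosomes. Kif1b, which carries mitochondria and synaptic vesicle precursors, differed by 0.12 ± 0.21, and its other probe by -0.071. Kif1c, of Golgi and vesicle traffic, had levels of 8.14 and 8.66 against 9.22 and 8.30. Control 1 was the highest, and without it the difference of -0.36 became 0.098. Kif16b, of early endosomes, stood at 10.39 and 10.46 against 9.89 and 10.42, low in Control 1 alone. Kif13b, a vesicle motor, was low in Control 1 alone as well, at intensities of 8, 3 and 6 against 17 to 44 in the other 3 samples. Its difference of 1.21 ± 0.74 was 0.13 without Control 1. Kif13a and Kif1a differed by 0.0048 and 6e-04.

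Of the minus-end motors, Kifc3, of epithelial junctions and Golgi traffic, had levels of 11.38 and 11.02 against 10.91 and 10.78. All its Salv CKO arrays lay above all control arrays, and the difference was 0.36 ± 0.24 (SE, limma, unadjusted p = 0.202). Kifc2 had levels of 7.93 and 7.83 against 7.92 and 7.84, and was level. Kif21a and Kif21b, which act on microtubule growth in nerve cells, differed by -0.15 and -0.12, and both overlapped.

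Set against each other by sample, the classes did not separate the genotypes fully. Each gene was centred on its mean over the 4 samples, and the mean of the transport kinesins was subtracted from that of the mitotic kinesins. The result was 0.26 and -0.032 in Salv CKO 1 and 2, and 0.010 and -0.23 in Control 1 and 2. Salv CKO 2 thus lay below Control 1, and the groups overlapped. The difference between the groups was 0.22, against a spread between samples of a group of 0.189 (SD). Without the dim members, a choice that leaves out Kif20a, the values were 0.13, 0.18, 0.044 and -0.36 in the same order. The groups then did not overlap, with a difference of 0.32, and Control 2 stood apart more than Control 1. The mitotic partner list, by the same measure without subtraction, stood at 0.30 and 0.26 against -0.29 and -0.26. No test was made of these values, because the members were chosen with earlier results of these data known.

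**Figure D4:**
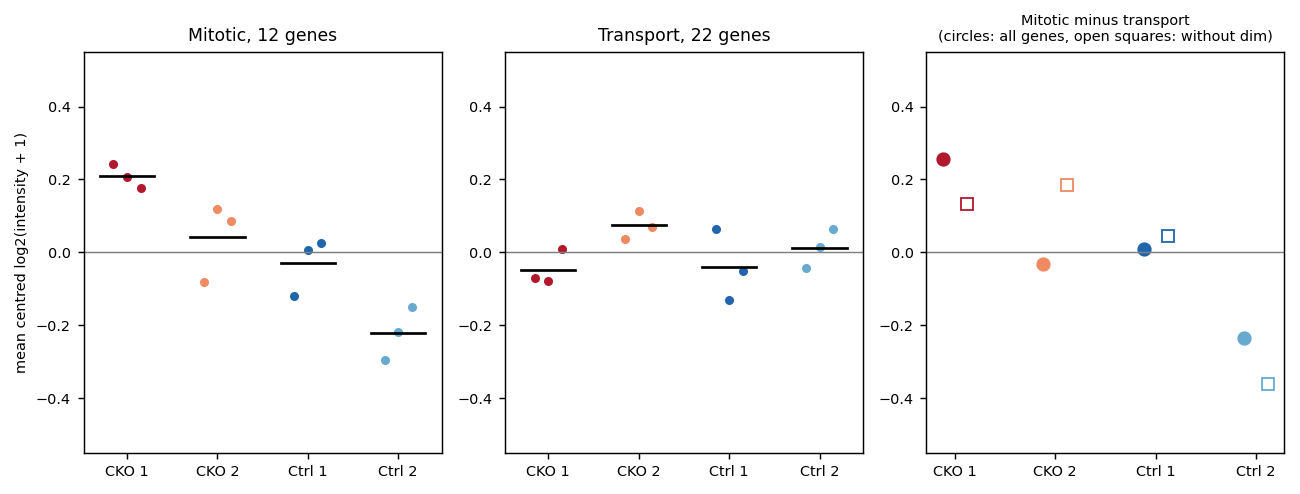
Mean centred log2(intensity + 1) of the mitotic kinesins (left; points are technical arrays, bars sample means) and transport kinesins (middle), and the mitotic minus the transport mean of each sample (right; circles for all genes, open squares without dim genes), in Salv CKO 1 and 2 (CKO) and Control 1 and 2 (Ctrl). The mitotic mean runs from 0.21 in Salv CKO 1 to -0.22 in Control 2, the transport means lie within -0.047 and 0.074, and the circles of Salv CKO 2 (-0.032) and Control 1 (0.010) overlap the groups.

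Of the 10 other kinesins, the samples of the groups did not overlap in 2, against 30.7% of all genes, and overlapped in the other 8. The 2 were Kif24, which was higher in Salv CKO, and Kif19a, which was lower. Kif6, of motile cilia, was low in Control 2 alone, at intensities of 8, 6 and 14 against 33 to 51 in the other samples, and its difference of 0.83 ± 0.73 became -0.22 without Control 2. Kif9, also of motile cilia, had levels of 6.70 and 5.92 in the Salv CKO samples and 5.50 and 6.60 in the controls, and Kif12 had levels of 5.46 and 5.07 and of 4.36 and 5.77. Both were thus higher in Salv CKO 1 and Control 2, where the airway list summed higher, and the part of airway RNA was not tested. Kif26a, which lacks motor activity and acts in signalling, had levels of 8.07 and 8.44 against 8.99 and 8.19, highest in Control 1. Kif24, which acts at the centriole, had levels of 6.15 and 6.02 against 5.80 and 5.98, a difference of 0.20 ± 0.22 that is within the SD of 0.244 between its technical arrays. Kif19a, of the ciliary tip, was dim, at 3.55 and 3.69 against 3.96 and 3.71, and differed by -0.22 ± 0.22. Kif2a, Kif7, Kif26b and Kif27 differed by 0.073, -0.039, 0.13 and -0.11, and all overlapped. Kif7, a regulator of Hedgehog signalling, had a dimmer probe at 3.75 and 4.35 against 5.47 and 4.73, a difference of -1.05 ± 0.38 (SE, limma, unadjusted p = 0.0422), so its probes disagreed.

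The rest of the microtubule transport machinery was read from lists of partner genes. The list of dynein, the opposing minus-end motor, and its activator dynactin had 10 of 23 genes with a probe. These were dynactin genes and the regulators Pafah1b1, Nde1 and Ndel1, so no subunit of dynein itself was read. The difference was positive in 8 of the 10, with a median of 0.11. Dctn5 differed by 0.37 ± 0.23, Dctn3 by 0.22 ± 0.21 and Dctn2 by -0.19 ± 0.22. Tubulins had 11 of 13 with a probe, 4 positive and 7 negative, with a median of -0.027. Tuba8, an alpha-tubulin of muscle and brain, stood at 9.36 and 9.08 against 9.98 and 9.83, a difference of -0.69 ± 0.23 (SE, limma, unadjusted p = 0.0333). Tubb2b differed by 0.28 ± 0.24 and Tuba4a by -0.20 ± 0.21.

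Cargo adaptors and regulators had 16 of 19 with a probe, 6 positive and 10 negative, with a median of -0.068. In 6 the Salv CKO samples lay below the controls, against 16.5% of all genes, and in 2 above, against 14.2%. The microtubule-binding gene Mapt stood at 7.35 and 7.93 against 8.25 and 8.42, a difference of -0.69 ± 0.28. Mapk8ip1, which links kinesin-1 to its cargo, differed by -0.58 ± 0.29 and Fez1, a kinesin-1 adaptor, by -0.58 ± 0.31. Trak2 and Rhot2, which tie mitochondria to kinesin-1, differed by -0.38 and -0.32, and in both no Salv CKO array reached the lowest control array. The related genes did not share these values. Trak1, Rhot1 and Fez2 differed by -0.17, 0.097 and -0.055, all with overlap. Mapk8ip3 and the dim Mapk8ip2 differed by 0.42 and 0.27, and were the 2 genes with Salv CKO samples above the controls. None of these genes passed the adjusted threshold in limma.

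Many members changed sign with single samples. Of the mitotic kinesins, 6 of 12 kept their sign when each sample was left out in turn (Kif20b, Kif2c, Kif4, Kif18a, Kif22 and Kif18b), as did 11 of 22 transport and 2 of 10 other kinesins. The mitotic median stayed above 0 in all settings tried, from 0.16 without Control 2 to 0.50 without Control 1. The count of positive differences, 10 of 12 with all samples, fell to 7 without Control 2 and was 11 without Control 1.

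**Figure D5:**
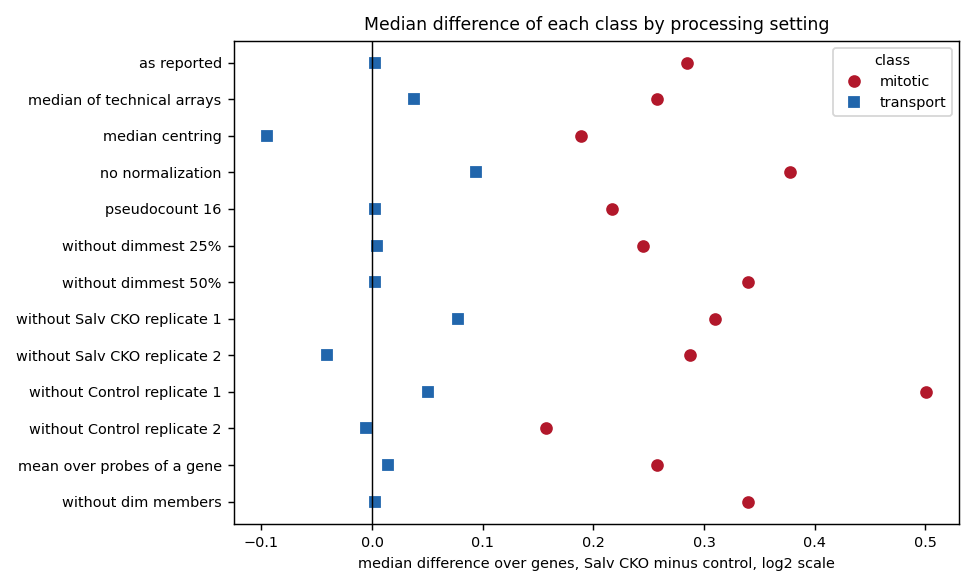
Median difference over the mitotic (circles) and transport (squares) kinesins, Salv CKO minus control on the log2 scale (horizontal axis), under each processing setting or with 1 sample left out (vertical axis). The mitotic median lies above 0 throughout (0.16 to 0.50), and the transport median lies on both sides of 0 (-0.095 to 0.094). The median of all probes moves as well, to -0.08 with median centring and 0.11 without normalization.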

How the data were processed

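Per the labels' protocols, amplified heart RNA carried amino-allyl bases, to which Cy5 was coupled for one-colour arrays. The deposited values are intensities of 26423 probes, whole numbers from -10 to 65474, and values below 0 show a subtracted background. The sources used here name neither scanner nor normalization. Array medians ran from 58 to 88, so the 12 arrays were quantile normalized, values at or below 0 were raised to 0.0833, the smallest value above 0, and put on the log2(value + 1) scale. Each sample's 3 technical arrays were averaged into 1 replicate. Precision is limited by 2 samples a group.

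Salv CKO and control were compared with limma 3.58.1 (R 4.3.3; lmFit and eBayes, residual df 2, prior df 2.60; two-sided), with Benjamini-Hochberg adjustment over all probes. Nothing says that the samples came from separate litters, so the p-values may not cover the spread between litters. They rest on the spread between samples of a group. Its median SD over all genes was 0.242, against 0.136 between technical arrays. Symbols came from the platform annotation, updated through RefSeq (GRCm38.p6); all 44 members matched. The probes' genome build is not given, so no probe position is printed. Probes with a mean deposited intensity under 32 are called dim.

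The members, classes and lists were chosen with earlier results of these data known. The rule for named genes took all mitotic kinesins, the 6 brightest transport kinesins and the 4 with the smallest p, the 4 other kinesins with the smallest p, members with an unadjusted p under 0.05, 3 genes of each partner list and Sav1. All further genes named were chosen after their values were seen. The procedure was tested on simulated data in 5 runs. It called 0 of 346 probes with a log2 change of 1, 1 of 343 with 2 and 195 of 311 (62.7%) with 4. Of unchanged probes it called 9 of 131115. A count of 0 therefore says little about differences of the size given here. Figures were drawn with matplotlib 3.10.9.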

Additional observations from a re-analysis of the deposited data

How the results depend on the processing

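The count of 0 of 26423 probes (limma, adjusted p under 0.05; 1047 at an unadjusted p under 0.05) became 61 in a fit of all 12 arrays with sample as random block, 10 with arrays centred on their medians and 11 without normalization between arrays, and was 0 in every other setting. In the random block fit Kif20b (limma, adjusted p = 0.0317), Racgap1 (0.0101) and Hmmr (0.00371) passed. That fit takes its degrees of freedom from 12 arrays of only 4 samples, with a single correlation shared by all probes. Its passes are therefore not taken as calls. Same-numbered samples did not deviate together (correlation over probes -0.253), so the numbers were not taken as pairs. With the replicate block, which pairs samples by number, 0 members had an unadjusted p under 0.05, against 2 without the block, and 0 probes passed. A crossed pairing, chosen after seeing the data, gave 2 members and 0 probes. With 1 sample left out, the lone sample of its group was assumed to vary like the other group. The mitotic median of 0.28 then ran from 0.16 to 0.50, the transport median of 0.0027 from -0.041 to 0.078, and the mitotic minus transport difference of 0.22 from 0.080 to 0.37. The transport median was -0.095 with median centring and 0.094 without normalization, where the median of all probes was -0.08 and 0.11. Leaving out dim members, also chosen after seeing the data, gave 0.34 (mitotic), 0.0027 (transport) and 0.32 (mitotic minus transport).

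Signs turned in single genes, all uncalled. With samples left out, 25 of 44 members changed sign at least once. Kif14 ran from -0.056 to 0.71, Kif23 from -0.12 to 0.61, Kif11 from -0.32 to 0.53, Kif2b from -0.61 to 0.40, Kif20a from -1.08 to 1.28, Kif15 from -0.61 to 0.54, Kifap3 from -0.083 to 0.20, Kif6 from -0.22 to 1.87 and Kif26a from -0.73 to 0.062. The same held for Kif5a (-0.17 to 0.90), Kif1c, Klc2, Klc3, Klc4, Kif21a, Kif21b, Kif9, Kif12, Kif2a, Kif7, Kif26b and Kif27, and for Kif1a, Kif13a and Kifc2, whose differences were near 0. With median centring, where the median of all probes was -0.08, Kif2b was 0.030, Kif1b -0.097 and Kifap3 -0.12. Without normalization, where it was 0.11, Kif2b was 0.22, Kif15 0.12 and Kif19a 0.023. As a mean over probes Klc1 was 0.080. The causes were not tested. Dim probes limit what can be read of Kif14, Kif2b, Kif20a, Kif17, Kif3c, Kif13b, Klc3 and Kif19a.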
